A study of Rattus norvegicus with 12 samples.

Results

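Single-transcript assembled loci are stretches of the rat genome where a transcript assembler placed exactly 1 transcript and that carry no Ensembl gene identifier. The deposited tables list 8372 of them among 43206 genes and loci, and the 638 with a mean of at least 1 CPM over the 12 libraries are described here. They were chosen by that measured mean level, which is therefore not a finding. CPM is the estimated count of a locus for every 1000000 of the summed estimated counts of its library. The tissue was prefrontal cortex from SD rats, at postnatal day 28. Of the 12 libraries, 4 are labelled normal, 4 are labelled as the hypoxic-ischemic brain damage (HIBD) model and 4 are labelled acupuncture. The acupuncture label gives no injury, but the series title ties acupuncture to rats with such damage. The labels name no transgene, no sex and no pooling of animals, and they do not say that each library is 1 animal, so a p-value here covers the spread between libraries, which may be technical.

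A transcript assembler joins overlapping sequenced fragments into transcript models and groups overlapping models into a locus. A locus outside the annotation can be a long non-coding RNA, an unannotated end of a known gene, a retained intron or a transcribed repeat. Such RNAs are often at low levels in brain. The files give these loci an identifier beginning with XLOC and their transcript one beginning with TCONS, with no position, strand, sequence or gene name. None of the 638 loci matched the rat reference table, so the kind of RNA each one makes was not analysed here. The Ensembl gene identifiers did not match that table either, and the tissue label was therefore not checked against marker genes.

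Total estimated counts ranged from 714904584 to 1090316733 per library, and what 1 unit is worth in reads is unknown. Normal replicate 10 stood apart from the other 3 normal libraries at these loci. It was the highest of the 4 normal libraries at 485 of the 638 loci, or 76%, against 63.9% of 770 assembled loci with several transcripts and 13.7% of 5607 Ensembl genes with 1 transcript row, all with the same minimum mean of 1 CPM. Counts and median fold changes against normal are given with it and without it. It was singled out by the same measure, so values without it are a description and not independent support.

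Most of the loci were low, and a few were not. The median locus had a mean of 2.13 CPM, with 288 loci under 2 CPM and 70 at 8 CPM or more. The 10 loci of highest mean CPM held 25.2% of the summed mean CPM of all 638. Levels of different loci are comparable only per length, as FPKM, the same kind of level divided by transcript length. On that scale the median locus had a mean of 0.921 FPKM. The same median was 1.53 FPKM over the 770 loci with several transcripts and 11.2 FPKM over the 5607 Ensembl genes with 1 transcript row.

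Among the 6 loci of highest mean CPM 4 were also steady over the 12 libraries. XLOC_170445 had the highest mean FPKM of these 6, 80.2, and 80.8, 88, 106 and 72.6 CPM in normal replicates 8, 10, 11 and 13. It had 88.1, 117, 103 and 101 CPM in HIBD model replicates 2, 8, 16 and 18, and 106, 118, 102 and 113 CPM in acupuncture replicates 5, 22, 35 and 55. All 3 groups overlapped at this locus. XLOC_026211, XLOC_200890 and XLOC_016771 had mean levels of 15.7, 14 and 16.8 FPKM, and their SDs of log2(CPM + 0.1) over the 12 libraries were 0.23, 0.28 and 0.31. XLOC_016771 averaged 78.2 ± 4.56 CPM in normal, 98.5 ± 20.2 CPM in HIBD model and 120 ± 3.48 CPM in acupuncture libraries (SD, n = 4). Its log2 fold change between acupuncture and normal was 0.67 (SE 0.17, edgeR quasi-likelihood test, adjusted p = 0.102), which missed the threshold of 0.05 although the normal and acupuncture libraries did not overlap.

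The other 2 of these 6 loci, XLOC_011104 and XLOC_003066, varied more, with SDs of log2(CPM + 0.1) of 2.74 and 0.67. The first quartile of this SD over the 638 loci was 0.76. XLOC_011104 had 0.255, 10.3, 4.29 and 0.973 CPM in normal replicates 8, 10, 11 and 13. It had 10.4, 78.7, 56.1 and 10.5 CPM in HIBD model replicates 2, 8, 16 and 18 and 87.7, 238, 51.7 and 22.4 CPM in acupuncture replicates 5, 22, 35 and 55. The acupuncture libraries all lay above the normal ones, the lowest HIBD model library was just above the highest normal one, and the highest library was 934 times the lowest. Even so, the log2 fold changes from normal of 3.37 (SE 1.21) in HIBD model and 4.72 (SE 1.29) in acupuncture did not pass (edgeR adjusted p = 0.144 and 0.104). XLOC_003066 went the other way. It averaged 43.9 ± 15.9 CPM in normal, 28.8 ± 13.0 CPM in HIBD model and 24.5 ± 9.36 CPM in acupuncture libraries, with overlapping groups and no call (edgeR adjusted p = 0.318 and 0.2 against normal).

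**Figure D1:**
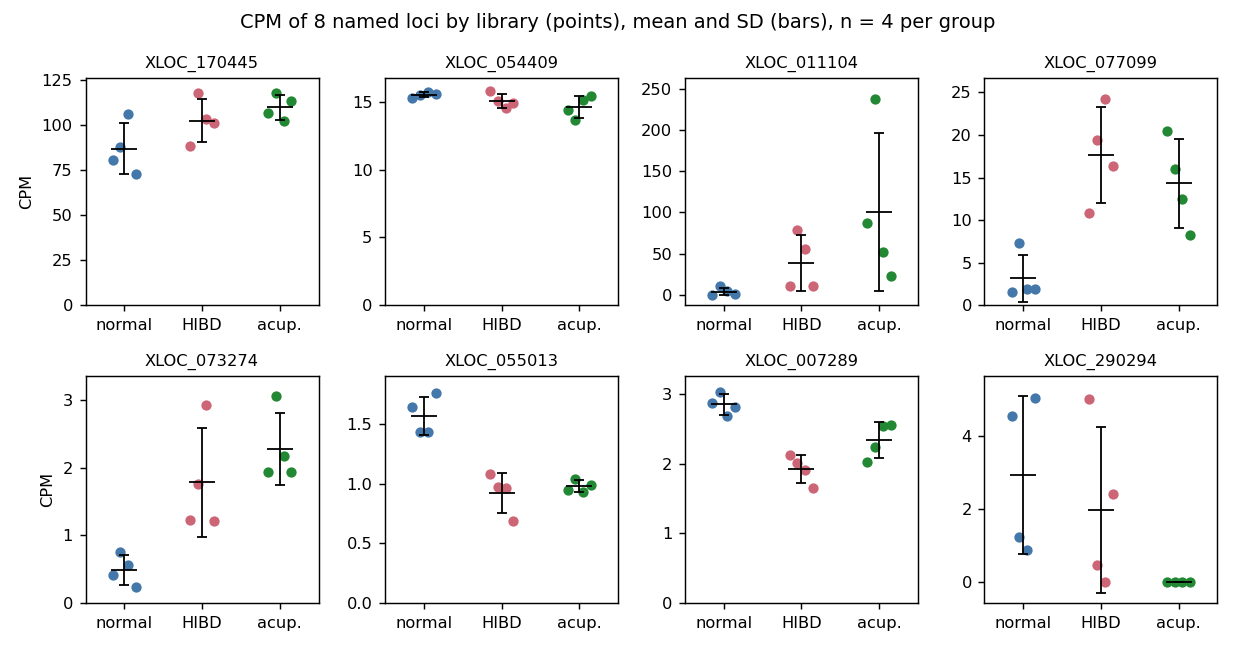
CPM of 8 named loci in each library; points are libraries, black bars are the mean and SD of the 4 libraries of a group, and each vertical axis has its own range. XLOC_054409 lies between 13.6 and 15.8 CPM in all 12 libraries, XLOC_077099 is low in the normal libraries, and XLOC_290294 is listed at 0 in all 4 acupuncture libraries.

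The choice of loci did not name length, but a floor on CPM favours long rows. The ratio of estimated count to FPKM of a row is proportional to the length that the authors' quantification used, and it is given here relative to the median Ensembl transcript row. The median single-transcript locus had a relative length of 2.62, with quartiles of 1.32 and 5.00. Loci with several transcripts had a median of 2.89 by their most abundant transcript, and Ensembl genes with 1 transcript row had 1.31. With only libraries at 1 FPKM or more used, the medians were 1.51 over 484 single-transcript loci, 1.92 over 506 loci with several transcripts and 1.02 over 5507 of those Ensembl genes. Only 37 of the 638 loci, 5.8%, were shorter than 0.5, against 20.7% of those Ensembl genes. These Ensembl genes had the same floor, but it did not make the classes comparable. The median locus, at 2.13 CPM, lay near the floor, and the median of these Ensembl genes was 14.2 CPM. The median relative length of the loci was 2.1 with a floor of 0.5 CPM and 3.27 with a floor of 2 CPM. Within a bin of mean level from 1 to 1.5 CPM, the median relative length was 1.68 over 180 single-transcript loci and 0.47 over 357 of those Ensembl genes. From 2 to 4 CPM the 2 medians were 2.63 and 0.63, and from 8 to 1000 CPM they were 5.18 and 1.90. Assembled loci at 1 CPM or more, with 1 or with several transcripts, were mostly longer than the typical Ensembl transcript row. How much of this comes from the floor was not tested.

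The longest loci were XLOC_003066 and XLOC_018706, with relative lengths of 25.5 and 24.4. XLOC_018706 had only 0.12 FPKM on average, spread as 4.72, 2.31, 7.03 and 6.66 CPM over normal replicates 8, 10, 11 and 13, with means of 2.69 ± 1.43 CPM in HIBD model and 1.89 ± 0.827 CPM in acupuncture libraries. The shortest were XLOC_071285 and XLOC_280442, with relative lengths of 0.055 and 0.097. XLOC_280442 was steady, at 2.68 ± 0.10 CPM in normal, 2.96 ± 0.573 CPM in HIBD model and 2.71 ± 0.26 CPM in acupuncture libraries. XLOC_071285 was not. Its lowest library, acupuncture replicate 55, had 0.284 CPM and its highest, HIBD model replicate 16, had 12 CPM. Across the 638 loci, Spearman's rho was 0.29 between relative length and the SD of log2(CPM + 0.1). It was -0.66 between relative length and mean FPKM, 2 quantities that share the length. Loci share the 12 libraries and are not independent, so no p is given.

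Loci fell into a steady and a varying share. The SD of log2(CPM + 0.1) over the 12 libraries had a median of 1.23, against 1.02 for loci with several transcripts and 0.208 for Ensembl genes with 1 transcript row. It was under 0.5 at 115 loci and 1 or more at 418. The steadiest loci were XLOC_054409, at 15.5 ± 0.178 CPM in normal, 15.1 ± 0.524 CPM in HIBD model and 14.6 ± 0.808 CPM in acupuncture libraries, and XLOC_127582, at 17.0 ± 0.882, 17.4 ± 0.706 and 16.7 ± 1.14 CPM. Neither differed between groups beyond its spread. The widest swings came from loci that were on in some libraries and listed at 0 in others. XLOC_290848 had 21.6 CPM in normal replicate 11, 23.1 and 21.6 CPM in HIBD model replicates 16 and 18 and 31.0 CPM in acupuncture replicate 5. It had at most 0.344 CPM in the other 8 libraries, so its high values crossed all 3 groups. XLOC_185369 had 57.2 CPM in normal replicate 8, 60.3 CPM in HIBD model replicate 8 and 0 in the other 10 libraries.

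Listing at 0 was more frequent at these loci than in the other classes. Of the 638 loci, 553 were above 0 in all 12 libraries and 85, or 13.3%, were at 0 in at least 1. The share was 4.68% of loci with several transcripts and 1.16% of Ensembl genes with 1 transcript row. At 5 of the 638 loci a single library held over 50% of the summed CPM. The same was so at 8 of 770 loci with several transcripts and 5 of 5607 Ensembl genes with 1 transcript row. XLOC_044866 and XLOC_194431 were listed at 0 in all 4 normal libraries, and XLOC_063950, XLOC_185369, XLOC_194431 and XLOC_290294 in all 4 acupuncture libraries. These counts of 2 and 4 were 0 and 0 of 770 loci with several transcripts. They were 2 and 1 of 5607 Ensembl genes with 1 transcript row. The named loci were picked after their values were seen, and each reached the CPM floor through its other libraries. XLOC_194431 was above 0 only in HIBD model replicate 8, at 32.3 CPM. XLOC_185369 was above 0 only in replicate 8 of normal and replicate 8 of HIBD model. XLOC_044866 averaged 2.57 CPM in HIBD model and 5.79 CPM in acupuncture libraries.

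The levels of the loci by library showed where the variation lay. In each library, the log2(CPM + 0.1) of a locus was set against its mean over the 12 libraries, and the median over the 638 loci was taken. This median deviation was -1.77, 0.07, -1.42 and -1.42 for normal replicates 8, 10, 11 and 13. The values for HIBD model replicates 2, 8, 16 and 18 were 0.11, 0.77, 1.21 and 0.30. Acupuncture replicates 5, 22, 35 and 55 had 1.03, 0.71, 0.51 and -0.20. Thus 3 normal libraries lay more than 1 log2 unit below the other 9, while normal replicate 10 lay between acupuncture replicate 55 and HIBD model replicate 2. The loci with several transcripts had medians of -0.93, 0.03, -0.79 and -0.94 in the normal libraries in the same order, and up to 0.81 in HIBD model replicate 16. The medians of Ensembl genes with 1 transcript row stayed between -0.12 and 0.16 in all 12 libraries.

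**Figure D2:**
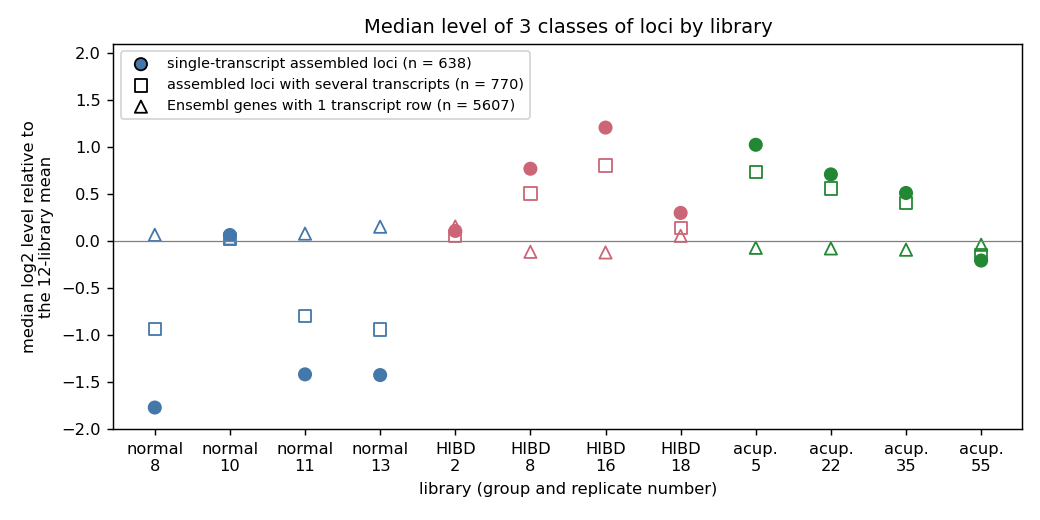
Median over loci or genes of log2(CPM + 0.1) relative to each one's 12-library mean, by library, for single-transcript assembled loci (filled circles), assembled loci with several transcripts (squares) and Ensembl genes with 1 transcript row (triangles), coloured by group. Normal replicates 8, 11 and 13 lie at -1.77 to -1.42 for single-transcript loci, and normal replicate 10 at 0.07.

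Counts of loci at 1 CPM or more use the same values as the median deviations, and the cutoff that chose the loci. A locus can reach a mean of 1 CPM through the libraries where it is high. The medians, counts and shares by library therefore describe the loci and test nothing. The counts were 215, 526, 236 and 239 of 638 in normal replicates 8, 10, 11 and 13. They were between 515 and 587 in HIBD model libraries and between 436 and 597 in acupuncture libraries. The 638 loci together took 0.202 ± 0.044% of the estimated counts in normal, 0.364 ± 0.0902% in HIBD model and 0.345 ± 0.082% in acupuncture libraries (SD, n = 4). Without normal replicate 10 the normal share was 0.18 ± 0.00583% (n = 3). HIBD model replicate 16 was the highest of all 12 libraries at 300 of the 638 loci, or 47%, against 38.1% of the loci with several transcripts and 4.37% of the Ensembl genes with 1 transcript row. In bulk tissue, fewer cells of a type and less RNA per cell cannot be told apart. The labels name no batch, extraction date or RNA quality value, and the part of such factors in these differences was not tested.

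**Figure D3:**
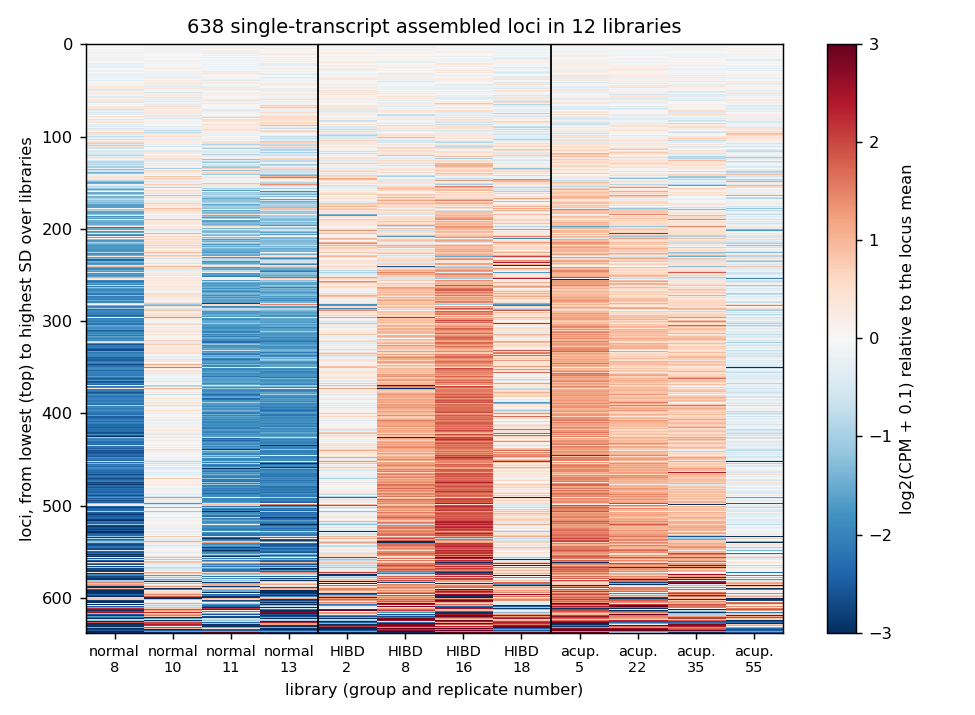
log2(CPM + 0.1) of each of the 638 loci relative to its own 12-library mean (colour, cut at -3 and 3), with libraries in columns and loci in rows from the lowest to the highest SD. The rows at the top are pale in all libraries, and most of the others are blue in normal replicates 8, 11 and 13 and red in HIBD model replicate 16.

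HIBD model libraries were set against normal ones to ask which loci differ in the injury model. No single-transcript locus passed an adjusted p of 0.05 in the edgeR test over all 27885 genes and loci, where 0.0968% passed. Of the 638 loci, 635 passed the filter on low values. XLOC_063950, XLOC_185369 and XLOC_194431 did not. The smallest adjusted p among the 635 was 0.102. At an unadjusted p under 0.05, 379 of the 635 were higher and 12 lower. Over all genes and loci tested, 13.6% were higher and 8.83% lower at that p. The 4 HIBD model libraries lay above all 4 normal ones at 183 loci, 28.8%, against 7.24% of all tested, and below them at 10 loci, against 3.07%. Without normal replicate 10, 405 loci lay above the remaining 3 normal libraries and 13 below, against 15.8% and 6.82% of all tested, and the unadjusted p was under 0.05 at 418 loci with higher and 9 with lower values, against 17% and 8.64%. With all 12 libraries, 20% of the loci with several transcripts had all HIBD model libraries above the normal ones, and 0.909% had them below. A locus high in only 1 group can reach 1 CPM through that group, so these counts describe the loci and test nothing.

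The log2 fold changes of the 635 loci formed a pair of peaks and no single shift. Their median was 1.73, with quartiles of 0.40 and 2.35, against a median of 0.01 over all genes and loci tested. The value was above 0 at 534 loci, 84.1%, against 50.8% of all tested. There were 142 loci between -0.5 and 0.5 and 367 at 1.5 or more. Loci with several transcripts had a median of 0.97 and quartiles of 0.15 and 2.11, and Ensembl genes with 1 transcript row had a median of -0.10. Without normal replicate 10 the median of the single-transcript loci was 2.61.

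**Figure D4:**
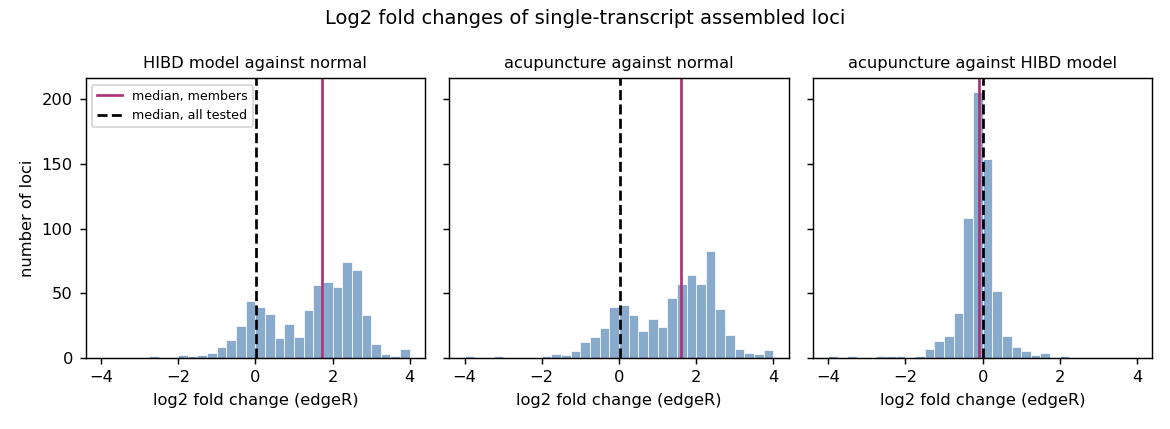
Numbers of single-transcript loci by log2 fold change (edgeR, bins of 0.25, values over 4 in size placed in the outermost bins) in the 3 comparisons; solid lines are the median of the 635 loci and dashed lines the median of all 27885 genes and loci tested. Both comparisons with normal have a peak near 0 and a larger one near 2, and acupuncture against HIBD model has 1 peak near 0.

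The 2 higher loci of lowest p were XLOC_077099 and XLOC_107374. XLOC_077099 had 1.5, 7.25, 1.88 and 1.95 CPM in normal replicates 8, 10, 11 and 13 and 10.8, 19.4, 24.2 and 16.3 CPM in HIBD model replicates 2, 8, 16 and 18. The groups did not overlap, and normal replicate 10 was the closest to the HIBD model libraries. The log2 fold change was 2.52 (SE 0.54, edgeR adjusted p = 0.102). XLOC_107374 had 0.705, 1.49, 0.513 and 1 CPM in the normal and 2.33, 2.80, 4.53 and 2.23 CPM in the HIBD model libraries, in the same order, or 1.71 higher on the log2 scale (SE 0.38, edgeR adjusted p = 0.102). The same 2 loci had 14.3 ± 5.20 and 2.72 ± 0.745 CPM in acupuncture libraries (SD, n = 4).

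The 2 lower loci of lowest p were short and varied little within groups. XLOC_055013, with a relative length of 0.386, had 1.64, 1.43, 1.44 and 1.76 CPM in normal replicates 8, 10, 11 and 13 and 1.08, 0.97, 0.962 and 0.689 CPM in HIBD model replicates 2, 8, 16 and 18. Here normal replicate 10 lay with the other normal libraries. The log2 fold change was -0.77 (SE 0.17, edgeR adjusted p = 0.102). XLOC_007289, with a relative length of 0.51, averaged 2.86 ± 0.147 CPM in normal and 1.93 ± 0.201 CPM in HIBD model libraries, with a log2 difference of -0.58 (SE 0.14, edgeR adjusted p = 0.102). Neither pair of groups overlapped, and neither difference passed over all genes and loci.

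Acupuncture libraries were set against the same normal libraries, which both comparisons share. No single-transcript locus passed in edgeR, where 0.0825% of all tested did, and the smallest adjusted p among the loci was 0.0875. Of the 635 loci, 364 were higher and 19 lower when p was not adjusted, at the same 0.05, against 14.1% and 10.4% of all tested. The 4 acupuncture libraries lay above all 4 normal ones at 102 loci, 16.1%, against 7.3% of all tested, and below them at 23 loci, 3.62%, against 12.3%. The median log2 fold change was 1.60, with quartiles of 0.35 and 2.25, against 0.02 over all tested. The value was above 0 at 532 loci, 83.8%, against 51.3% of all tested. Without normal replicate 10 the median was 2.47. That fit had 404 loci above the remaining 3 normal libraries and 26 below, against 16.4% and 17% of all tested, and the unadjusted p was under 0.05 at 414 loci with higher and 12 with lower values, against 17% and 10.4%. The numbers of loci above 0 were unchanged without it in both comparisons with normal, at 534 and 532. With all 12 libraries, 19.4% of the loci with several transcripts had all acupuncture libraries above the normal ones, and 1.82% had them below.

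XLOC_073274 had the smallest p of the loci in this comparison. It had 0.407, 0.757, 0.563 and 0.237 CPM in normal replicates 8, 10, 11 and 13 and 1.93, 3.05, 2.18 and 1.93 CPM in acupuncture replicates 5, 22, 35 and 55. The lowest acupuncture library was above the highest normal one, and the log2 fold change was 2.26 (SE 0.43, edgeR adjusted p = 0.0875). XLOC_111022 had 0.134, 0.712, 0.161 and 0.119 CPM in the normal libraries and 3.22, 3.07, 3.33 and 1.11 CPM in the acupuncture libraries, which is 3.32 higher on the log2 scale (SE 0.71, edgeR adjusted p = 0.101). The library nearest to the other group was normal replicate 10 on one side and acupuncture replicate 55 on the other. Among the lower loci, XLOC_290294 had 4.56, 1.24, 0.876 and 5.04 CPM in the normal libraries and was listed at 0 in all 4 acupuncture libraries, so no fold change is given (edgeR adjusted p = 0.101). XLOC_055013 averaged 0.979 ± 0.0492 CPM in acupuncture libraries against 1.57 ± 0.161 CPM in normal, with a log2 difference of -0.62 (SE 0.17, edgeR adjusted p = 0.104).

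The absence of calls against normal depended on 1 library and on the test. Without normal replicate 10, edgeR called 353 of the 635 loci higher and 4 lower in HIBD model, where it called 8.68% and 1.92% of all tested. For acupuncture it called 349 higher and 3 lower without that library, against 8.61% and 2.21% of all tested. With all 12 libraries, DESeq2 called 334 higher and 6 lower in HIBD model and 305 higher and 10 lower in acupuncture, against 9.63%, 3.83%, 9.87% and 5.63% of all tested. Limma-trend on log2(FPKM + 0.1) called 199 and 188 loci, where it called 4.97% and 6.24% of all tested. These calls lay just under the threshold, with smallest limma-trend adjusted p of 0.0429 and 0.0455 among the loci. On log2(FPKM + 1) limma-trend called 0 and 0 of the loci (smallest adjusted p = 0.0596 and 0.0667). Limma-voom called 0 and 0 (smallest adjusted p = 0.0726 and 0.0859). A fit of only normal and acupuncture libraries called 10 of 634 loci in edgeR, 7 higher and 3 lower. That was 1.58% of the loci, below the 3.07% it called of all tested. Without HIBD model replicate 2, 1 of the 635 loci passed, XLOC_144985 (log2 fold change 1.70, edgeR adjusted p = 0.0433), where 0.441% of all tested passed. It averaged 5.03 CPM in normal and 13.2 CPM in HIBD model libraries and was named after its values were seen.

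Acupuncture against HIBD model, the contrast of treated and untreated injury by the title, showed little at these loci. No locus passed in edgeR, where 0.0% of all tested did. With an unadjusted p under 0.05 there were 5 higher loci and 10 lower ones, against 1.94% and 3.37% of all tested. DESeq2 called 1 locus, XLOC_290294 (adjusted p = 3.47e-09), and 0.631% of all tested. The median log2 fold change was -0.09, with quartiles of -0.31 and 0.10, against 0.00 over all tested. It turned to 0.19 without HIBD model replicate 16 and to 0.08 without acupuncture replicate 55. Acupuncture libraries lay above all HIBD model ones at 1 locus, XLOC_178809, and below them at 6, which were 0.157% and 0.945% of the 635, against 0.897% and 1.23% of all tested. XLOC_178809, named after its values were seen, had group means of 2.04 CPM (normal), 1.37 CPM (HIBD model) and 2.05 CPM (acupuncture).

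By lowest p, the higher loci here were XLOC_007289 and XLOC_058681. XLOC_007289 had 2.03, 2.24, 2.55 and 2.56 CPM in acupuncture replicates 5, 22, 35 and 55 and 2.13, 2.01, 1.91 and 1.66 CPM in HIBD model replicates 2, 8, 16 and 18. These groups overlapped, and the log2 fold change was 0.35 (SE 0.14, edgeR adjusted p = 0.907). XLOC_058681 averaged 1.17 ± 0.205 CPM in acupuncture and 0.896 ± 0.0687 CPM in HIBD model libraries, with a log2 difference of 0.45 (SE 0.18, edgeR adjusted p = 0.909). The lower loci were XLOC_290294 and XLOC_193685. XLOC_290294 had 5.01, 0.466, 0 and 2.39 CPM in HIBD model replicates 2, 8, 16 and 18, so the HIBD model libraries reached down to the 0 listed in all acupuncture libraries (edgeR adjusted p = 0.907). XLOC_193685 had 9.48, 0.848, 0.803 and 15.5 CPM in HIBD model replicates 2, 8, 16 and 18, 2 high and 2 low, and between 0.279 and 0.878 CPM in acupuncture libraries. The difference on the log2 scale was -3.26 (SE 1.06, edgeR adjusted p = 0.907).

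The shortest loci had medians near 0. The 37 loci with a relative length under 0.5 had a median log2 fold change of -0.02 in HIBD model and 0.01 in acupuncture, both against normal, and 17 and 19 of them were higher. The 598 longer loci had medians of 1.79 and 1.65, and 517 and 513 of them were higher. From a relative length of 1 up, the medians were lower in each longer bin. The HIBD model medians were 1.98 at relative lengths from 0.5 to 1, 2.00 from 1 to 2, 1.78 from 2 to 4, 1.74 from 4 to 8 and 1.39 from 8 up. Without normal replicate 10 they were -0.03 under 0.5, 2.94 and 2.98 in the bins up to 2, and 2.70, 2.57 and 1.92 in the longer ones. The acupuncture medians without it were 0.02 under 0.5 and 1.77 to 2.73 in the longer bins. Loci with several transcripts also had a median near 0 under 0.5, -0.06 over 34 loci, and 0.56 to 1.20 in the longer bins. Ensembl genes with 1 transcript row stayed between -0.15 and 0.00 in every bin. By mean level, the 69 tested loci at 8 CPM or more had medians of 0.44 in HIBD model and 0.39 in acupuncture. In the bins from 1 to 8 CPM the medians were 1.72 to 1.93 and 1.49 to 1.8. Without normal replicate 10, the HIBD model medians were 0.57 at 8 CPM or more and 2.58 to 2.95 below. Loci with several transcripts showed no such drop, with medians of 1.09 and 1.15 over 185 loci from 8 to 1000 CPM. No test compares the bins, by length or by level.

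**Figure D5:**
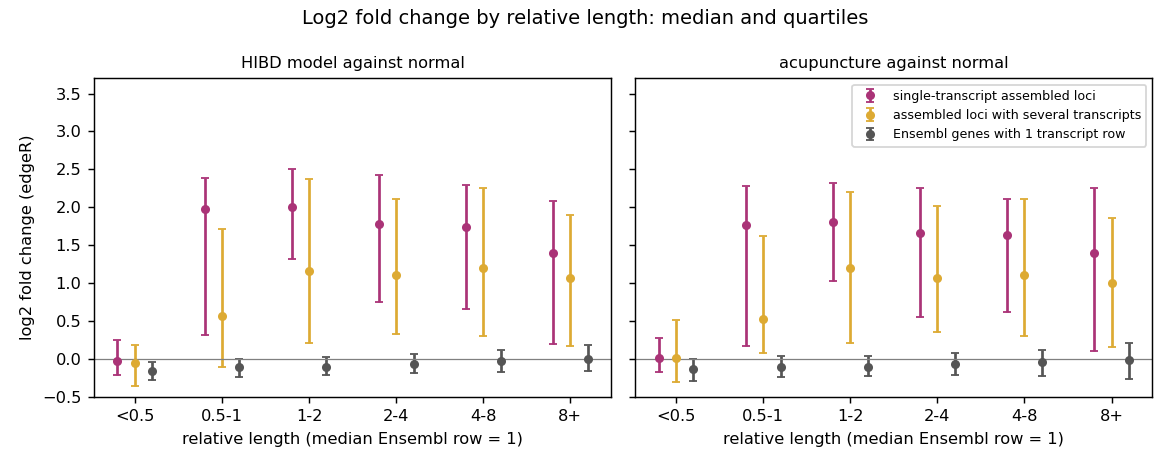
Median log2 fold change (points) with quartiles (bars) by relative length, for both comparisons with normal and 3 classes with a mean of at least 1 CPM. Single-transcript loci under 0.5 lie at -0.02 and 0.01, all longer bins lie at 1.39 or more, and Ensembl genes lie at or just below 0 throughout.

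The loci just above the floor were XLOC_016128 and XLOC_287545, both at a mean of 1 CPM after rounding, and those just below it, not among the 638, were XLOC_215008 at 0.999 CPM and XLOC_215388 at 0.997 CPM. Both loci above the floor and XLOC_215008 had under 0.15 CPM in normal replicates 8, 11 and 13 and between 0.57 and 0.64 CPM in normal replicate 10. XLOC_215388 did not share this pattern and had 0.979, 1.09, 1.5 and 1.17 CPM in the normal libraries.

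Loci with consecutive identifier numbers tended to vary together. There were 71 such pairs among the 638 loci, formed by 122 loci. Across the 12 libraries, the Pearson correlation of log2(CPM + 0.1) within these pairs had a median of 0.986, and 59 pairs, 83.1%, reached 0.8. Over all 203203 pairs of the 638 loci the median was 0.528 and 34.7% reached 0.8. XLOC_107374 and XLOC_107375 are such a pair, named after its values were seen, with r = 0.974. All pairs share the same 12 libraries, and the files give no positions, so whether the members of a pair lie next to each other on a chromosome was not analysed here.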

How the data were processed

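The authors deposited 1 table of whole-number values for 78025 transcript rows and 12 libraries, called read counts in its name, and 1 file per library with 1 value per row and a gene or locus identifier. Per the labels' protocols, total RNA was extracted with Trizol and libraries were made with an NEBNext kit. Per the submitters' processing notes, HTSeq 0.6.0 and Rnor_6.0 were used, with no role given; the aligner, like the assembler, is not given in the sources used here. Values of the table were treated as estimated counts as deposited, because each value was the per-sample value times a row factor and a library factor (median deviation 0.00113% over 12003 rows). The per-sample values the authors deposited were read as FPKM from the same product, which also pairs the rows of both files. Depth in reads is unknown, so no counting interval is given.

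Transcript rows were summed per identifier. All 12 libraries were fitted in 1 edgeR 4.0.16 quasi-likelihood model (R 4.3.3, TMM, filterByExpr by group, Benjamini-Hochberg over 27885 genes and loci, threshold 0.05). CPM uses the plain column sum, with a pseudocount of 0.1 on the log2 scale. Standard errors were derived from the F statistic. Relative length used rows with at least 0.1 FPKM. Tested on simulated data for HIBD model against normal (25657 genes), the edgeR script called 96% of 100 genes changed by 2 log2 units and 59% of 100 changed by 1. The simulation gave every gene the same spread, set no library apart and changed no genes of the lowest levels. These shares therefore do not apply to the single-transcript loci. Alternatives were RLE, DESeq2 1.42.0, limma-voom and limma-trend (limma 3.58.1) on log2(FPKM + 1) and log2(FPKM + 0.1), other filters, fits of 2 groups, transcript rows, other floors for the loci and each replicate left out.

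The loci and lists were chosen with earlier results of these data known. Named are the 6 loci of highest mean CPM, the 2 higher and 2 lower of lowest p in each comparison, the 2 longest and shortest, those next to the 1 CPM floor and those of highest and lowest SD. No sequences or positions of the loci were used here.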

Additional observations from a re-analysis of the deposited data

Results flagged for a closer look

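In groups of 4 libraries, 1 library was far from the other 3 by Dixon's test in 16 of 91 groups tested. Chance flags about 5% of groups, and the groups share libraries, so the flags are not independent. Some loci were named for a high SD or for not passing the filter, and 5 flags had all other libraries at 0. The 5% is therefore no measure for these groups. Normal replicate 10 accounts for 10 of the 16. In it the single-transcript loci took 0.268% of the estimated counts, against 0.176% to 0.187% in the other normal libraries, their median level was 1.87 CPM against 0.511 to 0.68 CPM, and 526 of them reached 1 CPM against 215 to 239. At single loci it was the highest normal library for XLOC_077099 (7.25 CPM against 1.5 to 1.95), XLOC_111022 (0.712 against 0.119 to 0.161), XLOC_016128 (0.574 against 0.0892 to 0.146), XLOC_287545 (0.639 against 0.0996 to 0.131) and XLOC_215008 (0.57 against 0.108 to 0.135). It was the lowest for the steady locus XLOC_127582 (15.7 CPM against 17.4 to 17.5) and the only normal library above 0 for XLOC_063950 (0.916 CPM).

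Other libraries stood apart at loci that were on in few libraries. XLOC_185369 had 57.2 CPM in normal replicate 8 and 60.3 CPM in HIBD model replicate 8, with the other 3 libraries of each group at 0. XLOC_194431 had 32.3 CPM in HIBD model replicate 8 and 0 in the other 3. XLOC_290848 had 21.6 CPM in normal replicate 11 with the other normal libraries at 0, and 31.0 CPM in acupuncture replicate 5 against at most 0.344 CPM. Acupuncture replicate 55 was low for XLOC_111022, with 1.11 CPM against 3.07 to 3.33 CPM.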

How the results depend on the processing

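The number of single-transcript loci called in HIBD model against normal was 0 of 635 in the main test and 340 with DESeq2. It was 199 with limma-trend on log2(FPKM + 0.1) and 2 of 1104 loci tested with a floor of 0.5 CPM. In acupuncture against normal it was 0, 315, 188 and 2 in the same settings and 10 of 634 with only 2 groups fitted, or 1.58% against 3.07% of all tested. Both added loci under the lower floor, XLOC_284701 and XLOC_109729, were listed at 0 in all normal libraries. The lower floor used the main fits, which called 0.0968% and 0.0825% of all tested. In acupuncture against HIBD model the number called was 0, with 1 by DESeq2. Leaving out each replicate gave 0 to 357, 0 to 352 and 0 to 0 calls in these 3 comparisons, with the highest counts without normal replicate 10. The median log2 fold changes of the loci from normal were 0.46 and 0.44 on log2(FPKM + 1), a scale that compresses low levels. Leaving out each replicate, they ranged from 1.44 to 2.61 and from 1.35 to 2.47, and the median between acupuncture and HIBD model from -0.27 to 0.19, above 0 without HIBD model replicate 16 or acupuncture replicate 55. The shares of estimated counts ranged from 0.18% to 0.211% in normal, 0.326% to 0.393% in HIBD model and 0.319% to 0.382% in acupuncture libraries. The median relative length was 1.51 when only libraries with an FPKM of at least 1 were used, which left 484 loci with a value, and 2.1, 3.27 and 2.47 with a mean of 0.5 CPM, a mean of 2 CPM and a median of 1 CPM. Of 170 values under other settings, 151 moved by less than the spread between replicates or kept their count. Counts without normal replicate 10 of loci above, below or not overlapping normal were added after seeing the data. No paired analysis was possible because the groups share at most 1 replicate number. The cause of these changes was not tested.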
